A study of Rattus norvegicus with 6 samples.

Results

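The miR-17, miR-18 and miR-19 seed families were followed in plasma exosomes of rats given melatonin. Of the 420 mature miRNAs in the table, 8 belong to these families, namely rno-miR-17-5p, rno-miR-20a-5p, rno-miR-20b-5p, rno-miR-93-5p, rno-miR-106b-5p, rno-miR-18a-5p, rno-miR-19a-3p and rno-miR-19b-3p. They were taken by name, as the main arms of the miR-17-92 cluster and of its paralogs outside the miR-25/92 seed, and all 8 were measured. Adult male Sprague Dawley rats of 200 to 250 g were injected intraperitoneally for 7 days, either with melatonin at 10 mg/kg in a 5% DMSO carrier (EXO2, n = 3 libraries) or with that carrier alone (EXO1, n = 3 libraries). Plasma was taken on day 8, and small RNA of its exosomes was sequenced. The labels name PBS and the methods name saline as the carrier. DMSO was thus given to all animals, and no animals without injection were sequenced. The labels describe isolation by centrifugation and the methods a commercial kit. Neither states whether a library came from 1 rat or from pooled plasma, so each p-value rests on the variation among these libraries alone, and this may be technical.

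Mature miRNAs of about 22 bases guide Argonaute proteins to messenger RNAs, mainly through the seed, bases 2 to 8. The miR-17-92 transcript is induced by MYC and E2F factors in dividing cells, and its products repress brakes on the cell cycle and on survival. The miR-17 seed family restrains the cyclin-dependent kinase inhibitor p21 and the pro-apoptotic protein BIM. miR-18a is known to target connective tissue growth factor. In blood, nucleated precursors of red cells, megakaryocytes and lymphocytes are known to express the clusters. The 8 mature sequences, as RefSeq gives them (GRCr8), are shown because they define the families, with the seed in capitals.
rno-miR-17-5p: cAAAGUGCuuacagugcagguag
rno-miR-20a-5p: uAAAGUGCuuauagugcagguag
rno-miR-20b-5p: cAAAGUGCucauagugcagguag
rno-miR-93-5p: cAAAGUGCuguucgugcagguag
rno-miR-106b-5p: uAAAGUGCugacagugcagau
rno-miR-18a-5p: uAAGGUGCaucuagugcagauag
rno-miR-19a-3p: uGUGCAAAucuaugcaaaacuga
rno-miR-19b-3p: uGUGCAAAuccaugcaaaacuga

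The first 5 share the seed AAAGUGC, miR-18a-5p has AAGGUGC, and miR-19a-3p and miR-19b-3p share GUGCAAA. Several members differ in few bases, counted from 1 at the 5′ end. From miR-17-5p to miR-20a-5p the differences are C1U and C12U, and from miR-17-5p to miR-20b-5p they are U10C and C12U. miR-19b-3p and miR-19a-3p differ in 1 base, C11U. From miR-20a-5p to miR-18a-5p there are 4 differences, of which A4G lies in the seed. How the authors assigned reads with a mismatch is not given in the sources used here, so the division of reads between such close copies is uncertain, above all for miR-19a-3p against the more abundant miR-19b-3p.

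The members come from 3 clusters, and the positions of the mature sequences are those of RefSeq (GRCr8). On the plus strand of chromosome 15 lie miR-17-5p (chr15:98587861-98587883), miR-18a-5p (chr15:98588000-98588022), miR-19a-3p (chr15:98588179-98588201), miR-20a-5p (chr15:98588318-98588340) and miR-19b-3p (chr15:98588486-98588508), followed by miR-92a-3p. On the minus strand of chromosome X lie miR-20b-5p (chrX:137343239-137343261), further copies of miR-17-5p (chrX:137343615-137343637) and miR-19b-3p (chrX:137343070-137343092), and their partners miR-92a-3p and miR-363-3p. miR-106b-5p (chr12:22157103-22157123) and miR-93-5p (chr12:22156894-22156916) lie with miR-25-3p on the minus strand of chromosome 12, within the span of Mcm7, which encodes a subunit of the replicative helicase. The rat hairpins of Mir17 on chromosome 15 and Mir106a on chromosome X carry the same miR-17-5p, in capitals.
Mir17: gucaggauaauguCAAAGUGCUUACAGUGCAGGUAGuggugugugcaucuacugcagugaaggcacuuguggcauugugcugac
Mir106a: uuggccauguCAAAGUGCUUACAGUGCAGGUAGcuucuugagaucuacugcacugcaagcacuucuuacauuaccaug

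The table gives miR-17-5p on 2 rows with no precursor name, and the lower row held 95.4% to 99.1% of the higher row's value in the 6 libraries. For miR-19b-3p, which also has a copy on each chromosome, this share was 93.5% to 100.1%. Values of miR-17-5p and miR-19b-3p therefore cannot be assigned to the autosomal or the X-linked cluster, and adding the rows would count most reads again. The row with the higher sum was used.

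The libraries held 3033119 to 4999379 miRNA reads in EXO2 and 2279500 to 5868405 in EXO1. In EXO1 replicate 1, the muscle miRNA miR-1b took 80.9% of the reads, against 22.5% and 0.849% in EXO1 replicates 2 and 3 and at most 1.32% in EXO2. In EXO1 replicate 3, a list of 4 liver miRNAs took 10.2%, against at most 1.08% in the other 5 libraries. A list of 7 measured erythrocyte miRNAs, led by miR-451-5p and without any member, took 54.6% to 64.8% of reads in EXO2 and 7.43% to 22.0% in EXO1. The authors' values, headed CPM, carry a composition factor per library and are called normalized CPM here. The members had 63 to 21358 reads per library. The fewest, those of miR-19a-3p in EXO1 replicate 1, stood at 39.9 normalized CPM with an exact 95% Poisson interval of 30.7 to 51.1. Without molecular identifiers, this and other intervals on reads cover counting error only.

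All 8 members had a higher mean in EXO2 than in EXO1, and none passed an adjusted p of 0.05 (limma on log2(normalized CPM + 1), Benjamini-Hochberg over 410 miRNAs above 0 in at least 2 libraries). The background at that threshold was 0%, or 0 of the 410, whereas 54 had an unadjusted p under 0.05. Their log2 fold changes lay between 0.44 for miR-20a-5p and 1.44 for miR-20b-5p, with a median of 0.82 against -0.56 over all 410 miRNAs, of which 37.6% were above 0. The value over all miRNAs depended on the low ones, and was -0.18 with a pseudocount of 10. Among the 256 with 10 or more normalized CPM in at least 3 libraries, as all members had, it was -0.055, with 49.2% above 0. At the thresholds of the study's methods, a fold change over 1.5 with an unadjusted p under 0.05, 1 of the 8 was higher, miR-106b-5p, where 5.85% of all miRNAs were higher and 7.32% lower. Every EXO2 library lay above every EXO1 library for 3 of the 8, miR-17-5p, miR-93-5p and miR-106b-5p, against 11.5% of all miRNAs. No member lay in the opposite order, as 9.51% of all miRNAs did.

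**Figure D1:**
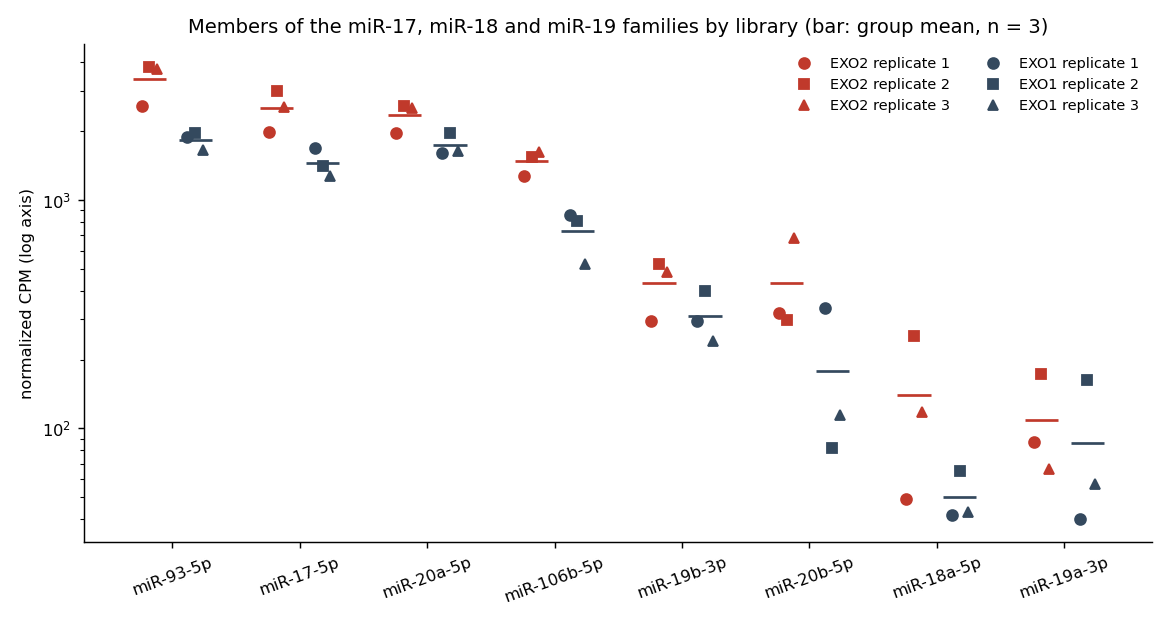
Normalized CPM (log axis) of the 8 members in each library, with EXO2 (melatonin) left of EXO1 (solvent), a symbol for each replicate and a bar at the group mean (n = 3). The groups are apart for miR-93-5p, miR-17-5p and miR-106b-5p and overlap for the other 5 members.

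Within the miR-17 seed family, miR-93-5p was the most abundant member in both groups. Its values were 2576, 3834 and 3755 normalized CPM in EXO2 (replicates 1, 2 and 3, as for every miRNA here), against 1879, 1973 and 1658 in EXO1. The groups did not overlap, and the gap between the lowest EXO2 and the highest EXO1 library was smaller than the range within EXO2. Between the groups, limma gave a log2 fold change of 0.86, with a standard error of 0.47, a 95% interval of -0.14 to 1.87 and an adjusted p of 0.379.

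miR-106b-5p, which shares its host transcript with miR-93-5p, had 1272, 1545 and 1623 normalized CPM in EXO2, against 862, 808 and 525 in EXO1. All 3 EXO2 libraries were higher, and EXO1 replicate 3 was the lowest of the 6. Its log2 fold change was 1.04, with a standard error of 0.48 and a 95% interval of 0.0078 to 2.07. The unadjusted p from limma, 0.0485, lay close to 0.05, and the adjusted p was 0.342. In 10 of 16 alternatives the unadjusted p was over 0.05, among them 0.0512 with repeated rows summed, 0.188 with library totals only, and 0.0697, 0.142 and 0.159 without EXO2 replicate 1, 2 or 3.

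miR-17-5p, the founding member of the family, had 1983, 2996 and 2562 normalized CPM in EXO2, against 1689, 1403 and 1272 in EXO1. The groups were apart, with EXO2 replicate 1 nearest to EXO1. In limma this came to a log2 fold change of 0.78, with a standard error of 0.47, a 95% interval of -0.23 to 1.78 and an adjusted p of 0.398.

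miR-20a-5p, which differs from miR-17-5p in 2 bases, had 1954, 2586 and 2522 normalized CPM in EXO2, against 1598, 1970 and 1635 in EXO1. EXO1 replicate 2 lay just above EXO2 replicate 1, so the groups overlapped. The fit by limma gave a log2 fold change of 0.44, with a standard error of 0.46, a 95% interval of -0.56 to 1.43 and an adjusted p of 0.590.

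miR-20b-5p, from the X-linked cluster, behaved less evenly. It had 318, 298 and 680 normalized CPM in EXO2, against 338, 82.0 and 114 in EXO1. EXO1 replicate 1 was as high as EXO2 replicates 1 and 2, whereas the other EXO1 libraries were below all of EXO2. limma estimated a log2 fold change of 1.44, with a standard error of 0.68, a 95% interval of -0.0087 to 2.89 and an adjusted p of 0.342. Without EXO1 replicate 1 it was 2.04 with an unadjusted p of 0.00980 from limma, and its adjusted p was then 0.119. The erythrocyte list was also highest within EXO1 in replicate 1, with a summed level of 276161 normalized CPM, against 108420 and 64973 in EXO1 replicates 2 and 3 and 366573 to 643921 in EXO2. As a share of reads the order within EXO1 differed, with 7.43% in replicate 1, the lowest, and 22.0% and 10.4% in replicates 2 and 3. The share of miR-20b-5p was likewise lowest there, with 533 of 5868405 reads in replicate 1. It had 379 of 2279500 reads in replicate 2 and 518 of 2819755 in replicate 3, so its high value in EXO1 replicate 1 depends on the scaling. The part of red cell RNA in the miR-20b-5p values was not tested.

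miR-18a-5p, alone in its seed family here, was a low member. It had 48.9, 253 and 117 normalized CPM in EXO2, against 41.8, 65.3 and 43.1 in EXO1. EXO2 replicate 1 lay among the EXO1 libraries, and EXO2 replicate 2 was far above all others. limma placed its log2 fold change at 1.20, with a standard error of 0.87, a 95% interval of -0.67 to 3.06 and an adjusted p of 0.461. Without EXO2 replicate 1 the value became 1.79, and without EXO2 replicate 2 it became 0.62.

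In the miR-19 family, the groups overlapped for both members. miR-19b-3p had 294.2, 524 and 485 normalized CPM in EXO2, against 294.6, 399.6 and 241 in EXO1. The lowest EXO2 and the middle EXO1 values nearly coincided. On the log2 scale limma gave a fold change of 0.47, with a standard error of 0.55, a 95% interval of -0.71 to 1.64 and an adjusted p of 0.631. The value became 0.72 without EXO2 replicate 1, 0.31 without EXO2 replicate 2 and 0.30 without EXO1 replicate 3.

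miR-19a-3p had 87.2, 173 and 66.5 normalized CPM in EXO2, against 39.9, 162 and 56.8 in EXO1. Replicate 2 was the highest library in each group, and the groups overlapped widely. limma placed its log2 fold change at 0.48, with a standard error of 0.84, a 95% interval of -1.33 to 2.28 and an adjusted p of 0.766. The value became 0.061 without EXO1 replicate 1, 0.31 without EXO1 replicate 3, 1.06 without EXO1 replicate 2, 0.085 without EXO2 replicate 2 and 0.77 without EXO2 replicate 3.

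Summed by seed, the miR-17 family reached 10168 ± 1789 normalized CPM in EXO2 and 5936 ± 637 in EXO1 (SD, n = 3 each). The miR-19 family reached 543 ± 158 in EXO2 and 398 ± 143 in EXO1 (SD, n = 3 each). The miR-17 seed made up 92.2% to 94.96% of the members' summed level in EXO2 libraries and 90.9% to 94.4% in EXO1 libraries. The makeup by seed thus overlapped between the groups.

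Mature miRNAs are of similar length, so levels were also ranked between members, although ligation and PCR efficiency differ between sequences. In all 6 libraries miR-93-5p, miR-17-5p, miR-20a-5p and miR-106b-5p, at 525 to 3834 normalized CPM, each lay above the other 4 members, at 39.9 to 680. By mean the order in EXO2 was miR-93-5p, miR-17-5p, miR-20a-5p, miR-106b-5p, miR-19b-3p, miR-20b-5p, miR-18a-5p and miR-19a-3p. In EXO1, miR-20a-5p preceded miR-17-5p and miR-19a-3p preceded miR-18a-5p. Neighbours in this order overlapped in range except, in both groups, miR-106b-5p with the members on either side, and in EXO2 also miR-20b-5p with miR-18a-5p. The median residual SD of the 8 members around their group means was 0.36 on the log2 scale.

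Whether the groups were apart depended on how libraries were scaled. As a plain share of miRNA reads, the members took 1.27%, 1.36% and 1.19% in EXO2, against 0.181%, 1.39% and 0.890% in EXO1. On this scale EXO1 replicate 2 (95% Wilson interval 1.38% to 1.41%) was above all EXO2 libraries (1.35% to 1.37% in the highest, replicate 2), and EXO1 replicate 1, with its miR-1b reads, was far below all others. Of reads outside the erythrocyte and muscle lists, the members took 2.88%, 3.64% and 3.46% in EXO2, against 1.81%, 2.54% and 1.004% in EXO1, and the groups were apart. The erythrocyte list took 54.6% to 64.8% of reads in EXO2 and 7.43% to 22.0% in EXO1, so leaving it out raises the EXO2 shares more. Leaving out the muscle list, at 82.6% in EXO1 replicate 1, raises the share there most. Being apart on this scale is thus not separate from the difference in the erythrocyte list. With library totals only, the groups were apart for 1 member, miR-20b-5p, with EXO2 higher. The log2 fold changes of miR-20a-5p, miR-19a-3p and miR-19b-3p became 0.75, 0.76 and 0.77 with library totals only and 0.23, 0.27 and 0.26 with RLE size factors. Those of all 8 were above 0 under each of the 16 alternatives. These 16 share libraries, and a change of filter, trend or block leaves the log2 fold changes as they are, so this count adds no independent evidence. A change in the number of vesicles from a cell type and in the miRNA content of each vesicle cannot be told apart in such bulk samples.

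**Figure D2:**
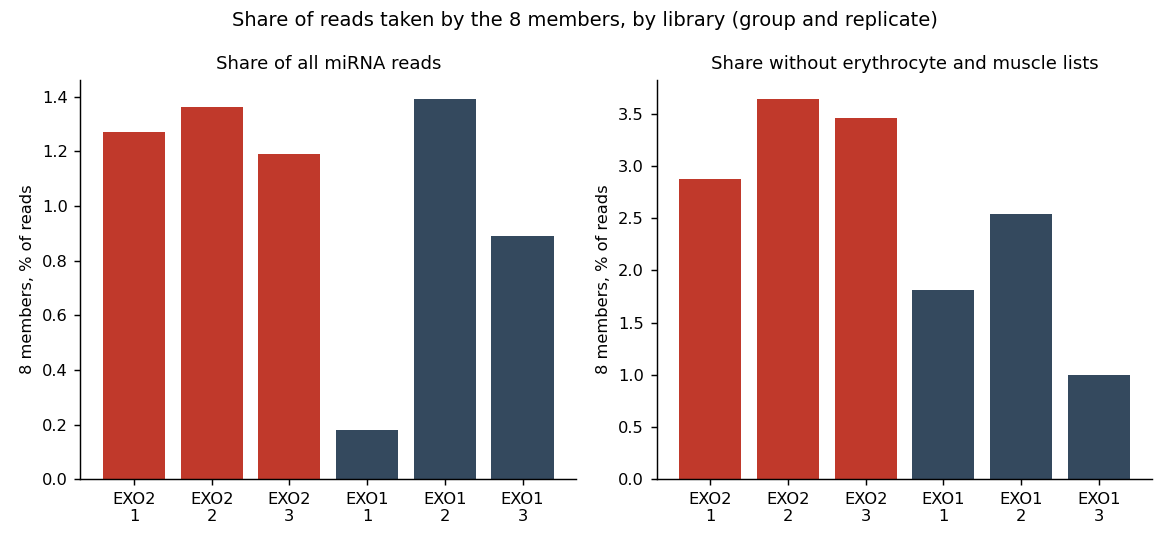
Percent of miRNA reads taken by the 8 members in each library, EXO2 in red and EXO1 in dark blue, out of all miRNA reads (left) and out of reads outside the erythrocyte and muscle lists (right). On the left EXO1 replicate 2, at 1.39%, exceeds the EXO2 libraries, whereas on the right EXO2 lies at 2.88% to 3.64% and EXO1 at 1.004% to 2.54%. The erythrocyte list left out on the right took a larger part of the reads in EXO2 than in EXO1, which raises the EXO2 bars more.

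Signs of red cell RNA differed between the groups in the same direction as the members. Haemolysis raises miR-451-5p over miR-23a-3p in plasma, and the log2 of their ratio was 8.48, 9.45 and 9.45 in EXO2 and 8.30, 6.83 and 4.88 in EXO1. The 7 measured erythrocyte miRNAs of 8 listed summed to 366573 to 643921 normalized CPM in EXO2 and 64973 to 276161 in EXO1. None was at 0 in all libraries. This sum is led by miR-451-5p, so it is not separate from the ratio. Within the list the groups overlapped for miR-144-5p and miR-185-5p, with limma log2 fold changes of 0.11 and 0.96. For the rest they were apart, with EXO2 higher. The leukocyte list (7 of 7 measured) summed to 3929 to 4181 in EXO2 and 2737 to 3890 in EXO1, close but without overlap. As a share of reads it overlapped, at 0.414% to 0.585% in EXO2 and 0.105% to 0.613% in EXO1. Within the leukocyte list the miRNAs did not move together. The groups were apart, with EXO2 higher, for miR-142-3p, miR-142-5p and miR-223-3p. They overlapped for miR-146a-5p, miR-342-3p, miR-150-5p and miR-155-5p, with limma log2 fold changes of -0.62, -1.64, 0.12 and 0.26. The platelet and endothelial list (6 of 6 measured) summed to 17428 to 21624 in EXO2 and 12958 to 26258 in EXO1, and the groups overlapped. The muscle list (9 of 11 measured) ran from 7337 to 13546 in EXO2 and from 5662 to 3070050 in EXO1. The liver list (4 of 4 measured) summed to 4737 to 7247 in EXO2, against 25140, 4933 and 63400 in EXO1 replicates 1, 2 and 3. EXO1 replicate 3 was also the lowest of the 6 libraries for miR-93-5p, miR-17-5p, miR-106b-5p and miR-19b-3p. Without it their log2 fold changes were 0.79, 0.69, 0.82 and 0.30. The part of these cell types in the members' values was not tested.

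The partners of the members in the clusters carry the miR-25/92 seed, AUUGCAC, which differs from the seeds of the members. In normalized CPM the groups were apart for all 3 partners, with EXO2 higher, as they were for 11.5% of all miRNAs. miR-25-3p had 6362, 8993 and 9452 normalized CPM in EXO2, against 5737, 5633 and 2695 in EXO1. limma gave it a log2 fold change of 0.88, with a standard error of 0.52 and an adjusted p of 0.397. As plain reads miR-25-3p took 26039 of 2279500 in EXO1 replicate 2. This was a larger share than 50103 of 4999379 in EXO2 replicate 2, so on that scale the groups overlapped. miR-92a-3p had 10969, 15012 and 15130 in EXO2, against 7970, 3632 and 2802 in EXO1, and miR-363-3p had 3631, 5915 and 6038 in EXO2, against 2834, 591 and 655 in EXO1. In limma their log2 fold changes were 1.65 and 2.29, with standard errors of 0.55 and 0.61 and adjusted p of 0.313 and 0.297. Both passed the fold change of 1.5 and the unadjusted p of 0.05, and the paper lists both as upregulated.

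**Figure D3:**
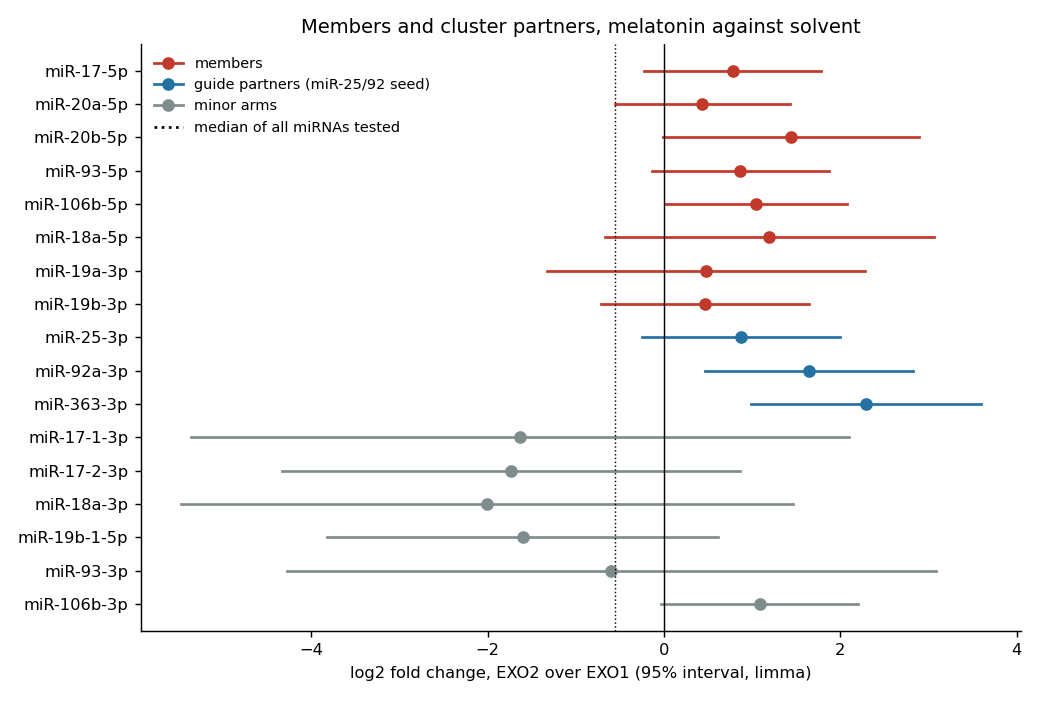
Log2 fold changes of EXO2 over EXO1 with 95% intervals from limma for the 8 members (red), 3 guide partners with the miR-25/92 seed (blue) and 6 minor arms (grey). The members lie between 0.44 and 1.44, right of the median of all miRNAs at -0.56 (dotted line), and only the interval of miR-106b-5p among them lies wholly above 0.

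Ratios within a library do not depend on its scaling, and 9 were compared between the groups by a 2-sided exact permutation test, whose smallest p for 3 against 3 libraries is 0.1. For the chromosome 15 and X clusters, 1 pair each of a member and its miR-25/92 seed partner was compared. The log2 ratio of miR-17-5p to miR-92a-3p was -2.47, -2.32 and -2.56 in EXO2, against -2.24, -1.37 and -1.14 in EXO1. Every EXO2 library lay below every EXO1 library, with a difference of -0.87 (exact permutation test p = 0.1, the smallest possible, 0.45 after Benjamini-Hochberg adjustment over the 9). The 2 table rows of miR-92a-3p differed widely, the lower one holding 14.6% to 18.2% of the higher, and with rows summed the difference was -0.83.

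For the X-linked pair, miR-20b-5p to miR-363-3p, the log2 ratio was -3.51, -4.31 and -3.15 in EXO2, against -3.07, -2.85 and -2.52 in EXO1. Again every EXO2 library lay lower, with a difference of -0.85 (exact permutation test p = 0.1, adjusted p = 0.45). The difference became -0.52 without EXO2 replicate 2 and -1.10 without EXO2 replicate 3. In the Mcm7 cluster the groups overlapped. The log2 ratio of miR-93-5p to miR-25-3p averaged -1.29 ± 0.053 in EXO2 and -1.27 ± 0.50 in EXO1 (SD, n = 3 each, exact permutation test p = 1.0). EXO1 replicate 3, where miR-25-3p was lowest, stood apart at -0.70, and without it the difference became 0.27. miR-106b-5p to miR-25-3p differed by 0.16 and miR-93-5p to miR-106b-5p by -0.18 (exact permutation test p = 0.3 and 0.5).

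Between members of 1 cluster, the log2 ratio of miR-20a-5p to miR-17-5p was -0.021, -0.21 and -0.023 in EXO2, against -0.080, 0.49 and 0.36 in EXO1. miR-17-5p thus exceeded miR-20a-5p in all EXO2 libraries and in EXO1 replicate 1 (difference -0.34, exact permutation test p = 0.3). The ratios of miR-18a-5p and miR-19b-3p to miR-17-5p and of miR-19a-3p to miR-19b-3p overlapped between the groups, with differences of 0.43, -0.31 and 0.017 (exact permutation test p = 0.7, 0.5 and 0.9). After Benjamini-Hochberg adjustment over the 9 ratios, the exact permutation tests of these 4 gave p = 0.675 to 1.0.

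**Figure D4:**
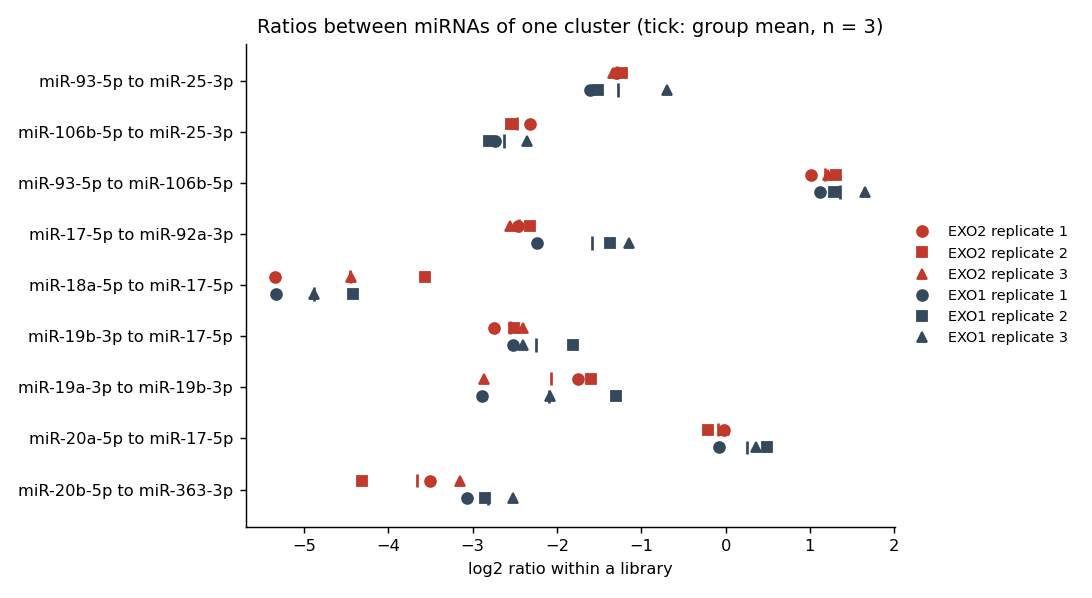
Log2 ratios between miRNAs of 1 cluster within each library, EXO2 (red) above EXO1 (dark blue), with a symbol per replicate and a tick at the group mean. The groups are apart for miR-17-5p to miR-92a-3p and for miR-20b-5p to miR-363-3p, with EXO2 lower in both, and overlap in the other 7 ratios.

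Minor arms of the same precursors are usually degraded, and of 14 listed, 6 were in the table. In the limma fit used here, none of the 6 passed both a fold change of 1.5 and an unadjusted p of 0.05. The paper, with its own test, lists miR-17-2-3p among them as downregulated. That arm had 46, 1 and 0 reads in EXO1 replicates 1, 2 and 3 and 0 in each EXO2 library. miR-106b-3p was the exception in level, with 724, 1134 and 1198 normalized CPM in EXO2, against 508, 651 and 309.7 in EXO1. Every EXO2 library was higher on this scale. limma gave a log2 fold change of 1.09, with a standard error of 0.52 and an adjusted p of 0.342. As plain reads miR-106b-3p took 3008 of 2279500 in EXO1 replicate 2, a larger share than 6319 of 4999379 in EXO2 replicate 2. It made up 36.3%, 42.3% and 42.5% of the reads of both arms in EXO2, against 37.1%, 44.6% and 37.1% in EXO1, so the use of the arms overlapped. miR-93-3p made up at most 0.494% in EXO2 and 0.648% in EXO1 of the reads of both arms, and none of 11638 in EXO2 replicate 1, which allows up to 0.0258%. The other 4, miR-17-1-3p, miR-17-2-3p, miR-18a-3p and miR-19b-1-5p, stood at 0 to 26.6 normalized CPM in EXO2 and 0 to 29.1 in EXO1, from at most 148 reads, and their groups overlapped.

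The members' mean pattern was taken as the mean of their log2 levels, each centred on its own mean over the 6 libraries. It stood at -0.0074, 0.73 and 0.53 in EXO2 replicates 1, 2 and 3 and at -0.35, -0.22 and -0.68 in EXO1. Likeness was measured by the root mean square difference from this pattern over the 6 libraries, among 248 other miRNAs with a value of 10 or more in at least 3 libraries, whose median was 1.26. The closest were miR-425-5p (0.12), miR-495 (0.13), miR-182 (0.22), miR-98-5p (0.22) and let-7i-5p (0.23). The members themselves stood at 0.083 for miR-93-5p to 0.80 for miR-20b-5p. Farther than all 5 of these were also miR-20a-5p (0.245), miR-18a-5p (0.52) and miR-19a-3p (0.67), so the members did not all share the pattern closely. miR-425-5p had 1431, 1931 and 1972 normalized CPM in EXO2, against 969, 1012 and 730.1 in EXO1, and its groups did not overlap.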

How the data were processed

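Small RNA of plasma exosomes had been sequenced in 6 libraries. After trimming, the authors kept reads from 15 nucleotides and annotated them with miRDeep2. The tools listed in the submitters' processing notes are cutadapt 1.14, edgeR 3.18.1 and Bowtie. For the genome build, miRNA release and mismatch options, nothing was given in the sources used. The deposited signal values, headed CPM, are 1 per mature miRNA and library, and the deposited log2 values of each group's mean served only as a check. In each library 100% of values were whole multiples of 1 step within a relative tolerance of 1e-06, and reads were the values divided by it. A count test was not run, because too few low values were present in 5 of the 6 libraries for the rule followed here.

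The 468 rows gave 420 mature miRNAs, taking the row with the highest sum for the 43 that were repeated. limma 3.58.1 (R 4.3.3, eBayes with trend) was run over the 410 above 0 in at least 2 libraries, on log2(value + 1), which understates changes of low miRNAs. Ratios used scipy 1.17.1. The fit was checked on simulated data, drawn independently for each miRNA and library. These lack the differences in composition between the real libraries, so the check does not cover their effect. A value of 0 allows up to 3 reads, or 0.538 to 0.798 normalized CPM in EXO2 and 0.649 to 1.90 in EXO1. All 8 members matched RefSeq (GRCr8) by name.

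The members, cluster partners and marker lists were chosen with earlier results of these data known. The members and all listed cluster partners in the table are named, with the 5 other miRNAs closest to the members' mean pattern. Arm shares and row shares were chosen after the values had been seen.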

Additional observations from a re-analysis of the deposited data

How the results depend on the processing

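The log2 fold changes of the 8 members kept their direction under all 16 alternatives. The changes of filter, the fit without trend and the replicate block cannot alter these values, so their direction there was fixed in advance. The median of the members was 0.82 and ranged from 0.63 to 0.99 when 1 library was left out. It was 1.13 with library totals only, 0.62 with RLE size factors and 1.06 with totals that left out erythrocyte and muscle miRNAs, where the median of all miRNAs was -0.43, -0.68 and -0.39. When 10 or more was required in 3 libraries (256 miRNAs), the median of all miRNAs was -0.055. The members past a fold change of 1.5 and an unadjusted p of 0.05 numbered 1 as reported, 2 with totals that left out erythrocyte and muscle miRNAs and with the stricter filter, 1 with a pseudocount of 10, and 0 with library totals only, RLE size factors, no filter, a pseudocount of 0.5, rows summed, no trend and the replicate block. Leaving out 1 library gave 0 to 2. Members with separate groups numbered 3, but 1 with library totals only and 3 to 6 when 1 library was left out. The 6 were reached without EXO2 replicate 1 and without EXO1 replicate 2. Over all miRNAs, the 54 past these thresholds became 30 with library totals only and 29 to 103 without 1 library, 103 without EXO1 replicate 1 and 29 without EXO2 replicate 3. Those past an adjusted p of 0.05 were 0 as reported, 5 without the trend, 2 with the replicate block and 0 to 2 without 1 library, none of them a member. The causes of these shifts were not tested.

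The 54 split into 24 higher and 30 lower, against 18 and 42 with RLE size factors, 8 and 22 with library totals only, 31 and 26 with totals that left out erythrocyte and muscle miRNAs, and 27 and 17 with the stricter filter. The replicate block left the count at 41. Deviations of libraries with the same number had correlations across miRNAs of -0.036, 0.055 and -0.12. Those of libraries with unlike numbers ran from -0.11 to 0.16. With 3 libraries per group, these values cannot decide whether the numbers pair the samples. Differences of the 9 ratios moved by less than the SD pooled over both groups under each alternative run, but without 1 library the sign turned for miR-93-5p to miR-25-3p (-0.18 to 0.27), miR-18a-5p to miR-17-5p (-0.013 to 0.88) and miR-19a-3p to miR-19b-3p (-0.38 to 0.41), whose groups overlap.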

Other observations

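EXO2 replicate 1 held the fewest miRNAs above 0, with 287 of 420, whereas the other EXO2 libraries held 330 and 311, and EXO1 replicates 1, 2 and 3 held 314, 413 and 354. In the range of 21 to 100 reads there were 28, 14 and 18 miRNAs in EXO2 libraries and 100, 91 and 97 in EXO1 libraries. Among the cluster partners, miR-17-1-3p, miR-18a-3p and miR-93-3p were at 0 in EXO2 replicate 1 and had at least 27, 21 and 11 reads in every EXO1 library. These counts were chosen after the values had been seen.

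The 3p arm of miR-18a took 2 of 1414 reads of both arms in EXO2 replicate 2, where the 5p arm had its highest value, and 31 of 97 in EXO1 replicate 1.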
